A study of Mus musculus with 8 samples.

Results

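The genes described here are 9 genes of the liver's antioxidant defence that are linked to the transcription factor NRF2: Nfe2l2, Keap1, Gclc, Gclm, Gsr, Txnrd1, Srxn1, Nqo1 and Hmox1. They were taken by symbol, each symbol had 1 locus, and together they are 9 of the 23235 symbols (23699 loci) measured. Liver mRNA selected for polyadenylated RNA was sequenced from male C57/BL6 mice 8 weeks old, in 4 groups of 2 libraries. The groups were control mice fasted for 24 h, liver-specific Med23 knockout mice (LMKO) fasted for 24 h, control mice given food for 24 h after the same fast, and LMKO mice treated in the same way. Mediator, of which the Med23 protein is a part, bridges DNA-bound transcription factors and RNA polymerase II. The labels do not say that the 2 libraries of a group came from separate mice, so p-values measure the spread between libraries, which may be technical. The allele, the Cre driver and the exact genotype of the controls are not given in the sources used here. Values are FPKM, fragments scaled to transcript length and to mapped fragments, which allows levels to be set side by side between genes.

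NRF2, the product of Nfe2l2, is held in the cytosol and sent for degradation by KEAP1 together with the ubiquitin ligase built on CUL3. Oxidants and electrophiles modify KEAP1, NRF2 then accumulates, pairs with a small MAF protein and binds antioxidant response elements near its target genes. In the liver this pathway is known for glutathione synthesis, for the thioredoxin system and for detoxification of quinones and other electrophiles. Because NRF2 is regulated largely through its protein, the mRNA of Nfe2l2 is not a measure of its activity.

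The core of the antioxidant response element, TGACNNNGC, was searched on both strands of RefSeq promoter windows (GRCm38.p6, 250 bases before to 50 after a gene's start). Windows were at hand for 6 of the 9 genes, 8 windows in all; Gclc, Gsr and Hmox1 had none. The element's letters were found in 4 of the 8 windows, 1 each for Nfe2l2, Gclm, Srxn1 and Txnrd1, and in 12.4% of all 32851 windows (4071). Keap1, Nqo1 and the other 2 windows of Txnrd1 held no match. Sequence farther than 250 bases before a start was not searched, so this does not show that a gene lacks the element. A match is a description of letters and does not show binding. The upstream matches are printed because they place the element's core beside a regulator and the genes it is known to control; capitals mark the 9 matched bases.
Nfe2l2: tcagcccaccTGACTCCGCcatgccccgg
Gclm: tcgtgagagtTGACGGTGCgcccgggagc
Txnrd1: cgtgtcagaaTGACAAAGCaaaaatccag
The stretch of Nfe2l2 is chr2:75704885-75704913 on the minus strand, with the match 232 to 240 bases before the start. That of Gclm is chr3:122245413-122245441 on the minus strand, 126 to 134 bases before the start. That of Txnrd1 is chr10:82859104-82859132 on the minus strand, 84 to 92 bases before 1 of its 3 starts. The match of Srxn1 lay 28 to 36 bases past its start and is not printed. These coordinates are on GRCm38.p6 and are not those of the deposited loci, which are on mm9.

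The FPKM sums of the libraries split by feeding state. Deposited FPKM summed to between 453652 and 468218 per library in the fasted state and between 511926 and 597650 after re-feeding. In each library 10096 to 10403 loci had an FPKM of at least 1. Med23 lay at 2.86 and 2.93 FPKM in fasted controls and 2.35 and 2.18 in fasted LMKO. After re-feeding controls had 2.86 and 2.33 FPKM and LMKO 1.61 and 1.74. It was lower in each LMKO library than in both controls of its feeding state but was not called (limma Benjamini-Hochberg adjusted p = 0.438 fasted and 0.315 re-fed). Of 8 hepatocyte markers listed, the 7 found by symbol summed to between 14350 and 20052 FPKM, and the 7 lymphocyte markers to between 0.389 and 3.38. Transferrin, also listed, was deposited under the symbol Trf and is not in the hepatocyte sum. It lay at 4150 and 3087 FPKM in fasted controls and between 6435 and 10250 in the other libraries. Each locus's deviation from its mean over libraries was correlated, across loci, with log2 transcript length: between 0.222 and 0.293 in the fasted libraries and between -0.357 and -0.018 in the re-fed ones. The deposited names also carry 1 number for all fasted and another for all re-fed libraries. If these mark batches, batch and feeding cannot be told apart, whereas both genotypes share each number. In bulk liver, fewer cells of a type and less RNA per cell cannot be told apart.

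In fasted control liver the order of levels ran from Gclm, the modifier subunit of glutamate-cysteine ligase, at 62.0 ± 3.66 FPKM (SD, n = 2) to Nqo1, a quinone reductase, at 2.77 ± 0.983. Txnrd1 at 35.5 ± 0.985, Gclc at 24.3 ± 3.51 and Nfe2l2 at 18.95 ± 4.99 FPKM followed Gclm, then came Srxn1 at 16.9 ± 2.68 and Gsr at 16.7 ± 0.509. Keap1 at 11.7 ± 0.0451 and Hmox1 at 8.10 ± 0.473 FPKM stood above Nqo1. Nfe2l2, Srxn1 and Gsr overlapped in their libraries, as did Gclc and Nfe2l2. Gclm was first, Keap1 seventh, Hmox1 eighth and Nqo1 ninth in all 4 groups. Gclc moved from the third place in fasted controls to the second in the other 3 groups; in re-fed LMKO its libraries (57.8 and 75.9) overlapped those of Gclm (68.1 and 81.9).

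**Figure D1:**
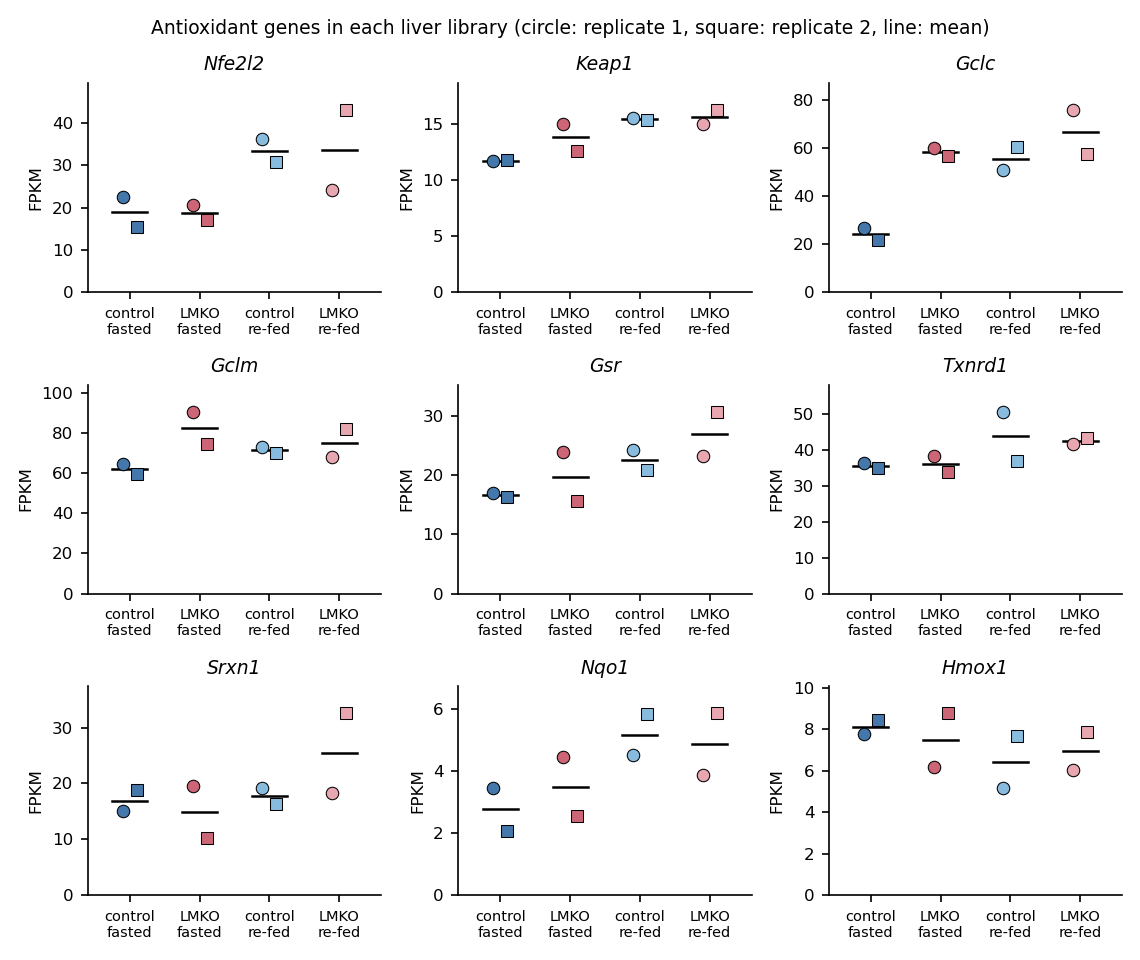
FPKM of each of the 9 genes (vertical axis, from 0) in the 8 liver libraries by group; circles are replicate 1, squares replicate 2 and lines the group mean. Gclc lies at 21.8 and 26.8 in fasted controls and between 50.8 and 75.9 in the other 6 libraries, while the groups of Txnrd1, Srxn1 and Hmox1 lie close together or overlap.

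Gclc, the catalytic subunit of glutamate-cysteine ligase, which carries out the rate-limiting step of glutathione synthesis, was lowest in fasted control liver (chr9, 77602342 to 77642296, mm9). Its level was 26.8 and 21.8 FPKM in fasted controls and 60.1 and 56.8 in fasted LMKO, then 50.8 and 60.5 in controls and 75.9 and 57.8 in LMKO after re-feeding. Both fasted controls thus lay below the other 6 libraries, and those 6 overlapped across the other 3 groups. As deposited, Gclm and Keap1 also had both fasted controls lowest. The share of all loci with that order was not counted. Fasted LMKO lay wholly above fasted controls for 33% of loci, and re-fed controls did for 43.9%. With re-feeding Gclc rose 2.29-fold in controls, the mean going from 24.3 ± 3.51 to 55.7 ± 6.87 FPKM (log2 fold change on log2(FPKM + 1) 1.16, SE 0.18, limma adjusted p = 0.00586). Gclc passed in all 20 alternatives run for this comparison (limma adjusted p between 0.00456 and 0.0341).

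In LMKO liver the Gclc means were 58.5 ± 2.33 FPKM fasted and 66.9 ± 12.8 re-fed (log2 fold change 0.18, SE 0.18, 95% interval -0.25 to 0.60, limma adjusted p = 0.454). The difference between the re-feeding responses of the genotypes was -0.99 (SE 0.25, 95% interval -1.59 to -0.39) at an unadjusted limma p of 0.00618 and an adjusted p of 0.481, so it did not pass. In that comparison 4 of 10865 loci (0.0368%) were called, 0 of the 9 genes among them (limma); Gclc was the only one of the 9 with an unadjusted p under 0.05, against 9.35% of loci.

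Between genotypes in the fasted state, the Gclc mean was 2.40-fold higher in LMKO, with no overlap of libraries, but the difference did not pass (log2 fold change 1.24, SE 0.18, 95% interval 0.81 to 1.66, limma adjusted p = 0.0764, unadjusted p = 0.00026). It was 37th of 10865 loci by p, and 82 loci (0.755%) had a larger rise. Its adjusted p stayed over the threshold of 0.05 in all 20 alternatives (limma, between 0.0599 and 0.27), with a log2 fold change between 1.10 and 1.38 when 1 library was left out. In the re-fed state the difference was 0.25 (SE 0.18, 95% interval -0.17 to 0.68, limma adjusted p = 0.613) and the libraries overlapped.

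Gclm, which binds the catalytic subunit and makes it more active at low glutamate, moved over a narrower range (chr3, 121948510 to 121969566). Its level was 64.6 and 59.4 FPKM in fasted controls and 90.4 and 74.4 in fasted LMKO, then 73.0 and 69.7 in controls and 68.1 and 81.9 in LMKO after re-feeding. As deposited, both fasted controls lay below every other library. Their median-ratio scaling factors (0.961 and 0.923) were also the lowest, the other libraries lying between 0.988 and 1.05. Division by these factors did not keep that order. Re-fed control replicate 2 (69.7 FPKM, factor 1.04) then lay below fasted control replicate 1 (64.6 FPKM, factor 0.961). The fasted LMKO mean was 1.33-fold that of controls (log2 fold change 0.40, SE 0.15, limma Benjamini-Hochberg adjusted p = 0.352), and the re-feeding difference was 0.20 in controls (adjusted p = 0.328) and -0.13 in LMKO (adjusted p = 0.499, limma). After quantile normalization the value for controls became -0.17 and that for LMKO -0.55, which was then called lower (limma adjusted p = 0.0234).

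Set against Gclm within the same library, a ratio that a single scaling factor per library leaves as it is, Gclc stood at 0.415 and 0.368 in fasted controls. The ratio of FPKM was 0.665 and 0.764 in fasted LMKO, and with re-feeding it was 0.696 and 0.869 in controls and 1.11 and 0.706 in LMKO. The fasted controls were the lowest libraries of all 8. With 2 libraries against 2 an exact permutation test cannot pass the threshold, so the ratio is given as a description.

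**Figure D2:**
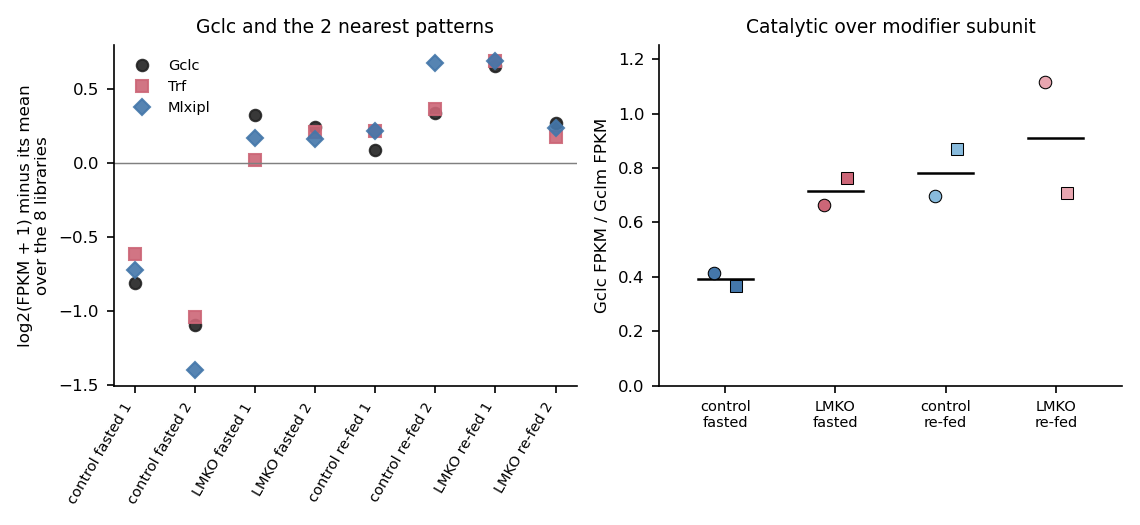
Left, log2(FPKM + 1) of Gclc, Trf and Mlxipl after subtraction of each gene's mean over the 8 libraries, by library; right, the ratio of Gclc to Gclm FPKM per library (circle, replicate 1; square, replicate 2; line, mean). In both panels the 2 fasted control libraries are the lowest, with ratios of 0.415 and 0.368. Trf and Mlxipl were picked for their likeness to Gclc over these libraries, so their order follows from that choice.

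The loci whose pattern was most like that of Gclc were sought among 6643 symbols with a mean of at least 5 FPKM, by the root mean square difference of log2(FPKM + 1) over the 8 libraries after subtracting each gene's mean. The nearest was Trf, transferrin, the iron carrier of plasma, with a difference of 0.14, against a spread of Gclc itself of 0.58. Trf was listed at 4150 and 3087 FPKM in fasted controls and between 6435 and 10250 in the other 6 libraries. The second was Mlxipl, which encodes the carbohydrate-responsive transcription factor ChREBP, with a difference of 0.18; it lay at 34.2 and 21.1 FPKM in fasted controls and between 64.0 and 92.8 in the others. For Nqo1 the nearest were Dlat (0.13), a subunit of pyruvate dehydrogenase, and Cbr1 (0.13), a carbonyl reductase. For Nfe2l2 they were Fam82a2 (0.14) and Tmem25 (0.16), for Keap1 Trim8 (0.044) and 0610031J06Rik (0.048), and for Gclm Vps11 (0.054) and Ppp2r5c (0.061). Those of Txnrd1 were Nisch (0.030) and Snx8 (0.047), those of Gsr Bpgm (0.091) and Eefsec (0.097), those of Srxn1 Lhpp (0.11) and Scamp5 (0.17), and those of Hmox1 Ube2b (0.13) and Myd88 (0.13). The lists share the same 8 libraries and describe these libraries only.

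Among the regulators, both Nfe2l2 and Keap1 were called higher with re-feeding over both genotypes, and neither was called between genotypes. Nfe2l2 (chr2, 75513576 to 75542698) had 22.5 and 15.4 FPKM in fasted controls and 20.5 and 16.98 in fasted LMKO, then 36.2 and 30.8 in controls and 24.1 and 43.0 in LMKO after re-feeding. All 4 re-fed libraries lay above all 4 fasted ones, as for 28.5% of loci; of the 9 this held for Nfe2l2 only. Over both genotypes Nfe2l2 rose with re-feeding, the mean going from 18.8 to 33.5 FPKM (log2 fold change 0.78, SE 0.21, limma adjusted p = 0.0182). Nfe2l2 no longer passed, with limma adjusted p of 0.0533 to 0.0581, without replicate 2 of either fasted group or re-fed control replicate 1, and after quantile normalization (0.0566). Within a genotype it did not pass, at 0.81 in controls (limma adjusted p = 0.0757) and 0.76 in LMKO (adjusted p = 0.0811). Between genotypes it was 0.00 fasted (95% interval -0.70 to 0.70) and -0.05 re-fed (95% interval -0.75 to 0.65), so a difference of either sign lies within the intervals.

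Keap1 (chr9, 21034174 to 21043776) had 11.7 and 11.8 FPKM in fasted controls and 15.0 and 12.6 in fasted LMKO, then 15.5 and 15.4 in controls and 15.0 and 16.2 in LMKO after re-feeding. As deposited, both fasted controls were lower than every other library, but their median-ratio scaling factors were also the lowest. After division by the factors the order held, by a narrow margin against fasted LMKO replicate 2. Over both genotypes it rose by 1.21-fold with re-feeding (log2 fold change 0.27, SE 0.08, limma adjusted p = 0.0327). That call did not hold in 10 of 19 alternatives, among them median-ratio scaling (0.19, limma adjusted p = 0.0654) and 7 of the 8 that dropped 1 library, the exception being fasted LMKO replicate 1 (limma adjusted p 0.0624 to 0.109 in the 7). The fasted LMKO libraries lay above the fasted controls by 0.21 on the log2 scale (limma adjusted p = 0.513). The ratio of Nfe2l2 to Keap1 FPKM was 1.92 and 1.31 in fasted controls and 1.36 and 1.34 in fasted LMKO, then 2.34 and 2.00 in controls and 1.61 and 2.65 in LMKO after re-feeding, so genotypes overlapped in the re-fed state.

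The reductases that regenerate thiols were not called in any comparison. Gsr, glutathione reductase (chr8, 34763710 to 34808634), had 17.05 and 16.3 FPKM in fasted controls and 24.0 and 15.6 in fasted LMKO, then 24.2 and 20.9 in controls and 23.2 and 30.8 in LMKO after re-feeding. Fasted LMKO replicate 1 lay among the re-fed libraries. Over both genotypes the re-feeding difference was 0.43 (SE 0.16, limma adjusted p = 0.0566), and it was called without replicate 1 of either LMKO group (limma adjusted p = 0.0175 and 0.0483). Txnrd1, the cytosolic thioredoxin reductase (chr10, 82296696 to 82360469), had 36.2 and 34.8 FPKM in fasted controls and 38.1 and 33.7 in fasted LMKO, then 50.6 and 36.9 in controls and 41.7 and 43.3 in LMKO after re-feeding. Its highest library was re-fed control replicate 1, and the highest was 1.5-fold the lowest. Txnrd1 passed over both genotypes without re-fed control replicate 2 (0.37, limma adjusted p = 0.0207), where with all libraries it was 0.26 (adjusted p = 0.103) and after quantile normalization -0.01.

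Srxn1, sulfiredoxin, which repairs overoxidised peroxiredoxins (chr2, 151931466 to 151937089), had the largest SD within a group relative to its mean among the 9. It had 15.0 and 18.8 FPKM in fasted controls and 19.5 and 10.2 in fasted LMKO, then 19.2 and 16.3 in controls and 18.3 and 32.6 in LMKO after re-feeding. The SD was 44.6% of the mean in fasted LMKO and 39.6% in re-fed LMKO, and its highest and lowest libraries were both LMKO. No comparison of Srxn1 passed, and the largest, re-feeding in LMKO, was 0.75 (SE 0.35, limma adjusted p = 0.132).

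Nqo1 (chr8, 109912125 to 109927105), which reduces quinones by transfer of a pair of electrons and is widely used as a readout of NRF2, was the lowest of the 9. It had 3.47 and 2.08 FPKM in fasted controls and 4.46 and 2.54 in fasted LMKO, then 4.52 and 5.84 in controls and 3.90 and 5.88 in LMKO after re-feeding. Genotypes overlapped in both states. Over both genotypes the re-feeding difference was 0.56 (SE 0.21, limma adjusted p = 0.0545), just short of the threshold, and it was called in 5 of 19 alternatives. The +1 on the log scale understates changes at this level: the ratio of means was 1.60.

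Hmox1, the inducible haem oxygenase (chr8, 77617517 to 77624492), was the only one of the 9 with a lower value after re-feeding over both genotypes. It had 7.77 and 8.44 FPKM in fasted controls and 6.18 and 8.77 in fasted LMKO, then 5.15 and 7.65 in controls and 6.01 and 7.85 in LMKO after re-feeding. The difference was -0.20 (SE 0.16, 95% interval -0.58 to 0.18, limma adjusted p = 0.313), and with the trend on transcript length removed it was -0.55 and was called (limma adjusted p = 0.027). Macrophages of the liver also express Hmox1. The 11 Kupffer cell and macrophage markers, all detected, summed to 134 to 158 FPKM in fasted controls, 142 to 185 in fasted LMKO, 110 to 149 in re-fed controls and 67.5 to 102 in re-fed LMKO; their part in the Hmox1 values was not tested.

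Across the 9 genes, 0 were called between genotypes in the fasted state, where 18 of 10865 loci (0.166%) were, and 0 in the re-fed state, where 11 (0.101%) were (limma). At an unadjusted limma p under 0.05 the counts were 2 of 9 fasted, against 12.4% of all loci, and 0 of 9 re-fed, against 11.7%. Over both feeding states 0 of 9 were called, against 34 loci (0.313%), with 1 of 9 (Gclc) against 15.1% at an unadjusted p under 0.05 (limma). Of the 9, 3 had fasted LMKO libraries wholly above the fasted controls (Gclc, Gclm and Keap1), against 33% of all loci, and 0 had them wholly below, against 12.8%. The median log2 fold change of the 9 was 0.20 fasted, beside 0.08 over all loci, and 0.06 re-fed, beside 0.01. The fasted median was -0.064 without fasted LMKO replicate 1 and 0.33 without replicate 2. It was 0.23 without fasted control replicate 1 and -0.014 without replicate 2. Sinusoidal endothelial markers, 9 of 9 measured, summed to 96.7 and 97.5 FPKM in fasted controls and 119 and 126 in fasted LMKO; their part in these values was not tested.

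**Figure D3:**
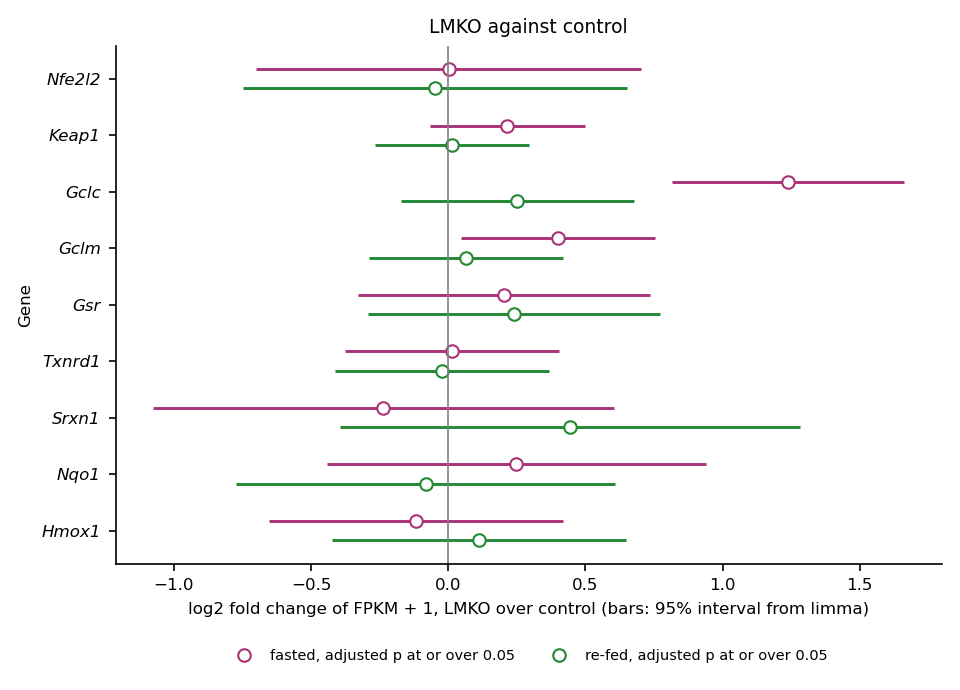
Log2 fold change of FPKM + 1 of LMKO over control (horizontal axis) for each of the 9 genes, fasted and re-fed; bars are 95% intervals from limma and open points have an adjusted p at or over 0.05. All points are open, and the intervals of Gclc (0.81 to 1.66) and Gclm in the fasted state lie above 0.

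With re-feeding, 1 of the 9 genes was called in controls, Gclc, against 33.2% of all loci, and 0 in LMKO, against 39.5% (limma). At an unadjusted limma p under 0.05 the counts were 4 of 9 in controls (Nfe2l2, Keap1, Gclc and Nqo1), against 45.6% of loci, and 1 of 9 in LMKO (Nfe2l2), against 49.7%. Without either re-fed LMKO library, which left the control values as they were but moved the shared estimate of spread, Nfe2l2 was also called in controls (limma adjusted p = 0.0395 and 0.0397). In LMKO Gsr was called without fasted LMKO replicate 1 and Nfe2l2 without re-fed LMKO replicate 1 (limma adjusted p = 0.0496 and 0.0318). As deposited, in controls 7 of 9 had re-fed libraries wholly above the fasted ones, against 43.9% of loci, and 1, Hmox1, wholly below, against 25%. After division by the median-ratio factors Gclm and Txnrd1 overlapped and left the 7. The share of all loci after that scaling was not counted. In LMKO 2 of 9, Nfe2l2 and Txnrd1, lay wholly above, against 41.5% of loci, and 0 wholly below, against 33.8%. Over both genotypes 3 of 9 were called higher (Nfe2l2, Keap1 and Gclc), against 53.1% of loci called, 32.4% higher and 20.6% lower, so the share of the 9 called higher was close to that of all loci, and 0 of the 9 were called lower. The median log2 fold change of the 9 was 0.37 in controls (0.13 over all loci) and 0.24 in LMKO (0.06). Median-ratio scaling gave 0.23 and 0.22. Quantile normalization gave 0.19 and 0.049, with 5 of the 9 values positive in each genotype. The control comparison called 2473 loci higher and 1137 lower as deposited, but 1839 and 1609 after median-ratio scaling, which moved the median of all loci from 0.13 to 0.01.

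**Figure D4:**
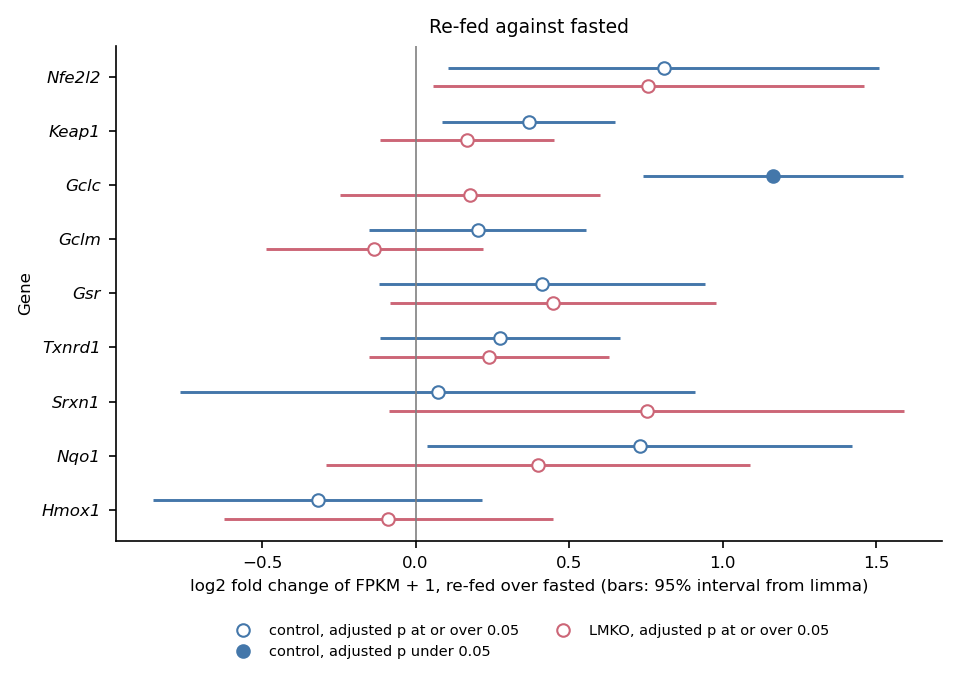
Log2 fold change of FPKM + 1 of re-fed over fasted (horizontal axis) for each of the 9 genes in control and LMKO liver; bars are 95% intervals from limma and filled points have an adjusted p under 0.05. Gclc in controls (1.16) is the filled point, and Hmox1 lies below 0 in both genotypes.

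Other genes of the pathway were taken from 8 lists written from general knowledge, with 111 genes, of which 100 had an FPKM high enough to be tested. The lists were chosen with earlier results of these data known, so their shares called are not independent of the data. Of these 100, limma called 53 higher and 8 lower with re-feeding in controls, and also 53 and 8 in LMKO, beside 22.8% higher and 10.5% lower of all loci in controls and 23.2% and 16.3% in LMKO. The median was 0.69 in controls and 0.73 in LMKO. The number called higher lay between 36 and 54 over the alternatives in controls and also between 36 and 54 in LMKO. The lowest arose without fasted control replicate 2 in controls and after quantile normalization in LMKO. The 8 called lower became 3 in controls without fasted control replicate 2 or when re-fed control replicate 2 was dropped, and 12 after quantile normalization; in LMKO they lay between 3, when re-fed LMKO replicate 1 was dropped, and 15, after quantile normalization. Markers of other liver cells did not all move the same way with re-feeding. Of 9 sinusoidal endothelial markers limma called 7 lower in controls (median -0.69) and 8 in LMKO (median -1.28). Of 11 Kupffer cell markers it called 1 and 6 lower, beside 10.5% and 16.3% of all loci. Of 3 cholangiocyte markers tested, 1 was called higher in each genotype (median 0.62 and 0.75). Of 8 stellate cell markers 1 was higher and 1 lower in controls, and 3 were lower in LMKO. Of 5 erythroid markers 0 were called in either genotype. The endothelial sums, given above for the fasted groups, were 64.5 and 69.1 FPKM in controls and 51.3 and 68.4 in LMKO after re-feeding. The part of these cells in the counts of the lists was not tested. Between genotypes 0 of the 100 were called in either feeding state, where 0.166% and 0.101% of all loci were. At an unadjusted limma p under 0.05 there were 21 of 100 fasted and 20 re-fed, beside 12.4% and 11.7% of all loci.

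Genes of detoxification and export were the longest list, with 27 tested. In controls 20 were higher and 1 lower, beside 22.8% and 10.5% of all loci. In LMKO 16 were higher and 1 lower, beside 23.2% and 16.3% of all loci (limma, median 1.67 in controls and 1.19 in LMKO). The largest was Gstm3, a glutathione transferase, at 1.54 and 2.16 FPKM in fasted controls and 98.5 and 90.8 in re-fed controls, and at 1.37 and 0.946 and then 50.8 and 60.4 in LMKO (log2 fold change 5.08 and 4.71, limma adjusted p = 9.79e-05 and 0.000107). Gstm1 rose by 1.67 in controls and 1.58 in LMKO, and Gsta4, which conjugates lipid aldehydes, by 2.70 in controls (limma adjusted p = 0.00172, 0.00154 and 0.00194). The Gstm genes are related in sequence. Sharing of reads among them was not measured, so the split among them is uncertain. Abcc3, an exporter of conjugates and the 1 call lower in each genotype, lay outside the naming rule.

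**Figure D5:**
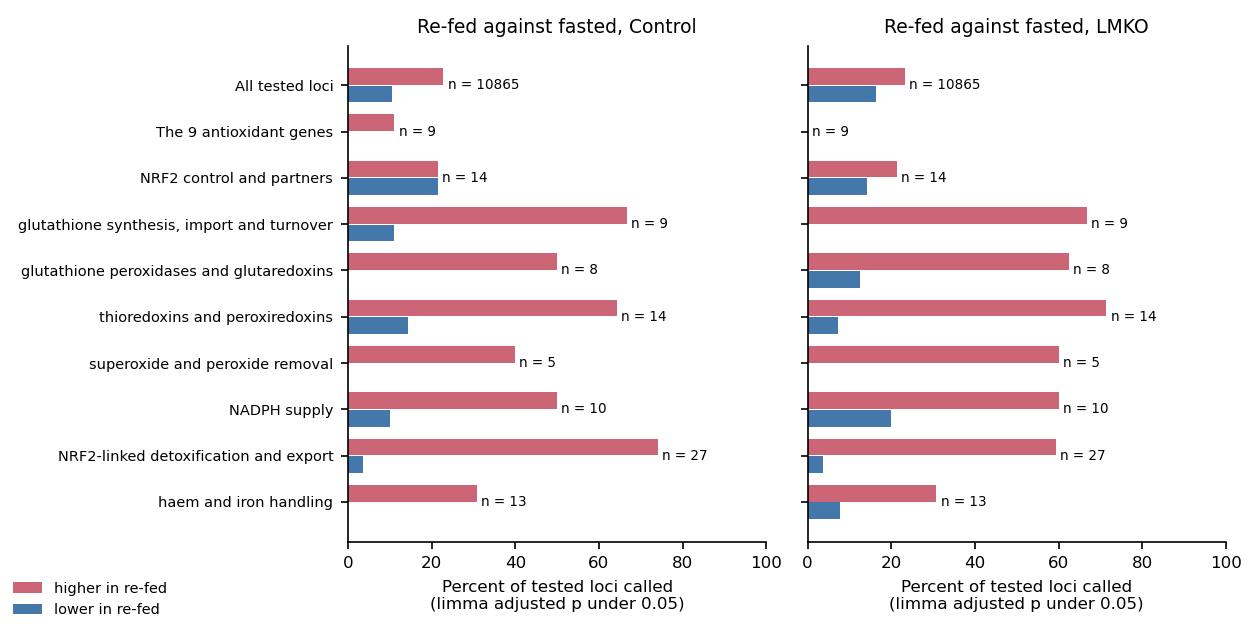
Percent of tested loci called higher or lower with re-feeding (limma adjusted p under 0.05) in control and LMKO liver, for all 10865 loci, the 9 antioxidant genes and 8 lists of other pathway genes; n is the number tested. Detoxification and export genes were called higher in 20 of 27 cases in controls, against 1 of the 9 antioxidant genes.

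The thioredoxin and peroxiredoxin list had 9 of 14 genes higher and 2 lower (Txnip and Sesn1) in controls, beside 22.8% and 10.5% of all loci. In LMKO 10 were higher and 1 lower (Txnip), beside 23.2% and 16.3% of all loci (limma). After quantile normalization the 10 were 6. Txn1, thioredoxin, went from 77.3 and 76.3 FPKM in fasted to 209 and 231 in re-fed controls, and from 99.1 and 84.65 to 259.5 and 268 in LMKO (1.51 and 1.52, limma adjusted p = 0.00145 and 0.00115). Prdx1, a peroxiredoxin, rose by 1.31 in controls and 1.44 in LMKO (limma adjusted p = 0.00197 and 0.00136). Txnip, which binds and inhibits thioredoxin, fell by 3.24 on the log2 scale in controls, from 121 and 238 FPKM to 20.3 and 14.4 (limma adjusted p = 0.00199). In fasted LMKO Txnip lay at 76.5 and 59.1 FPKM, below both fasted controls, a genotype difference of -1.32 that did not pass (limma adjusted p = 0.207).

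Genes of glutathione synthesis, import and turnover were called higher in 6 of 9 cases in each genotype, beside 22.8% of all loci in controls and 23.2% in LMKO (limma). In controls 1, Oplah, was lower, beside 10.5% of all loci. Gss, glutathione synthetase, which acts after glutamate-cysteine ligase, went from 23.4 to 40.2 FPKM in controls (0.75, SE 0.14, limma adjusted p = 0.0102). Cth, which makes cysteine from cystathionine, rose by 1.33 in LMKO (limma adjusted p = 0.00527). The 6 of controls were 3 without re-fed control replicate 2 and after quantile normalization. Of the 10 genes that supply NADPH, 5 were higher and 1 lower in controls and 6 higher and 2 lower in LMKO (limma). H6pd was lower in both and G6pdx in LMKO, shares near the 10.5% and 16.3% of all loci called lower. Pgd, of the pentose phosphate pathway, rose by 1.61 and 1.92 (limma adjusted p = 0.00189 and 0.00115).

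Glutathione peroxidases and glutaredoxins were called higher in 4 of 8 cases in controls and in 5, with 1 lower, in LMKO (limma). Those of controls were Gpx1, Gpx4, Glrx3 and Glrx5, with Gpx7 added and Glrx lower in LMKO. The 4 became 0 without fasted control replicate 2, 1 when re-fed control replicate 2 was dropped and 2 without either of the other control libraries, and the 5 became 3 without fasted LMKO replicate 2. With the length trend removed the counts were 2 in each genotype, and after quantile normalization 2 in controls and 3 in LMKO; in controls it was 1 with the replicate block and 2 when only the control libraries were fitted. Superoxide and peroxide removal had 2 of 5 higher in controls, Sod1 and Sod2, and 3 in LMKO, with Ccs, the copper chaperone of Sod1; Sod1 itself rose by 0.74 and 1.01 (limma adjusted p = 0.0187 and 0.00559). In controls 0 were called without fasted control replicate 2 or re-fed control replicate 2. Dropping re-fed control replicate 1 or either re-fed LMKO library left 1. The count of 3 became 1 without any 1 of the 4 LMKO libraries. Quantile normalization left 0 in controls and 1 in LMKO, the replicate block 1 in each, and median-ratio scaling or no filter on low values 1 in controls; 0 were called in controls when their libraries were fitted alone. Haem and iron handling, the list of genes that make, carry or break down haem or handle iron, had 4 of 13 higher in each genotype (limma). Of all loci 22.8% were called higher in controls and 23.2% in LMKO, shares near that of this list. The 4 were Blvra and Blvrb, the biliverdin reductases, and the ferritin genes Fth1 and Ftl1. Fech, which inserts iron into haem, was lower in LMKO. Blvra rose by 1.17 in controls and 0.72 in LMKO (limma adjusted p = 0.00212 and 0.00602). In controls the 4 became 1 or 2 without any 1 of the 4 control or 2 re-fed LMKO libraries, and in LMKO 2 without re-fed LMKO replicate 1 and 1 without replicate 2. The counts were 1 and 0 with the length trend removed and 1 in each after quantile normalization, and in controls 2 with median-ratio scaling or no filter on low values.

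Of the partners and competitors of NRF2, 3 of 14 were called higher (Rbx1, Dpp3 and Pgam5) and 3 lower (Bach1, Cul3 and Sesn2) in controls, and the same genes but for Sesn2 in LMKO (limma; median -0.36 and -0.30). The share higher was near that of all loci (22.8% in controls and 23.2% in LMKO), of which 10.5% and 16.3% were lower. The number called lower moved between 0, when re-fed control replicate 2 was dropped, and 5, under median-ratio scaling or quantile normalization, in controls, and between 1, without any 1 of the 4 LMKO libraries, and 5 in LMKO. Rbx1, the RING subunit of the CUL3 ligase, rose by 0.73 and 0.80, and Pgam5, a phosphatase that KEAP1 binds, by 0.79 and 0.81 (limma adjusted p = 0.0058, 0.00323, 0.00595 and 0.00404). Bach1, which represses antioxidant response elements and Hmox1 in particular, was at 10.5 and 16.9 FPKM in fasted and 6.11 and 4.09 in re-fed controls, and at 12.3 and 17.7 and then 5.001 and 4.10 in LMKO. No re-fed library reached a fasted one, and Bach1 fell by 1.253 in controls and 1.51 in LMKO (limma adjusted p = 0.0178 and 0.00781), the former not passing when re-fed control replicate 2 was dropped. Mafg, a small MAF partner of NRF2, had a difference between re-feeding responses of -0.53 that did not pass (limma adjusted p = 0.503).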

How the data were processed

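TopHat 1.4.1, SAMtools, Cufflinks 2.0.2, Cuffdiff 2.0.2 and the build mm9 are named in the submitters' processing notes, with no order or role. The authors deposited FPKM per locus; the sources used here give no further scaling step. Fragment numbers are unknown; low FPKM values recurred at ratios that gave a relative depth of 0.956 to 1.113, resting on 5.2% to 7.5% of 2867 low loci. Alb was listed at 0 in all 8 libraries, so a 0 can be a failed estimate. Deposited starts are printed 1 higher.

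Log2(FPKM + 1) of the 10865 loci that reached 1 FPKM in 2 or more libraries was fitted with limma 3.58.1 (R 4.3.3): 1 mean per group, 4 residual and 2.74 prior degrees of freedom, eBayes with a trend, two-sided, Benjamini-Hochberg adjusted over all loci per comparison, called under 0.05. All 9 genes passed the filter. The fit was run on simulated data with known changes in fasted LMKO only and no difference by feeding state. That run does not bear on the re-feeding calls. The members and lists were chosen with earlier results of these data known. The naming rule took all 9 genes, Med23, the 2 nearest patterns of each gene and, per list and comparison, every called gene or, beyond 4, the 4 with the smallest p (with none called, the 2 with the smallest p and a group mean of at least 5 FPKM); examples of these are given. Abcc3, Oplah, H6pd, G6pdx, Glrx and Cul3 were named after their values were seen. Replicate numbers are not said to pair libraries across groups.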

Additional observations from a re-analysis of the deposited data

How the results depend on the processing

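Of the 9 genes, 0 were called between genotypes or in the difference between re-feeding responses under every alternative run. With re-feeding in controls the 1 called became 2 at an FPKM minimum of 5 (Keap1 added) and with the replicate block (Nqo1 added), and lay between 1 and 2 with 1 library left out (Nfe2l2 added without either re-fed LMKO library). In LMKO the 0 became 1 after quantile normalization (Gclm, lower) and lay between 0 and 1 with 1 library left out: Gsr without fasted LMKO replicate 1, Nfe2l2 without re-fed LMKO replicate 1. Over both genotypes the 3 lay between 1 and 5, with 1 left when the second fasted library of either genotype or re-fed control replicate 1 was dropped, and 5 without fasted LMKO replicate 1. After quantile normalization the genes called over both genotypes were Nqo1 and Gclm in place of those 3.

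With a replicate block, Keap1 was no longer called over both genotypes (limma adjusted p = 0.0792) and Nqo1 was (adjusted p = 0.00924, and 0.026 in controls). Same-numbered libraries did not deviate together (r = -0.008 fasted and -0.024 re-fed).

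Signs of uncalled values turned under rescaling, the cause of which was not tested. Median-ratio scaling gave, for LMKO against control fasted, Nfe2l2 -0.097 and Txnrd1 -0.087; for re-feeding, Srxn1 -0.067 in controls and Gclm -0.050 over both genotypes; and for the difference between responses, Nfe2l2 0.067 and Txnrd1 0.082. Quantile normalization gave, between genotypes, Nfe2l2 -0.070 and Txnrd1 -0.071 fasted, and Keap1 -0.011 and Gclm -0.019 re-fed. With re-feeding it gave Gclm -0.17, Txnrd1 -0.00050 and Srxn1 -0.13 in controls, Gclc -0.19 and Txnrd1 -0.022 in LMKO, and Gclm -0.36 (called lower) and Txnrd1 -0.011 over both. Removing the length trend gave Nfe2l2 -0.057 and Txnrd1 -0.047 fasted, Srxn1 -0.088 and Gclm 0.043 with re-feeding in controls and in LMKO, and Txnrd1 0.042 for the difference between responses.

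With 1 library left out, log2 values turned sign within these ranges. LMKO against control, fasted: Nfe2l2 -0.26 to 0.26, Gsr -0.091 to 0.50, Hmox1 -0.34 to 0.10, Nqo1 -0.064 to 0.56, Srxn1 -0.68 to 0.20, Txnrd1 -0.073 to 0.10. Re-fed: Nfe2l2 -0.45 to 0.36, Gclm -0.066 to 0.20, Hmox1 -0.14 to 0.36, Keap1 -0.041 to 0.068, Nqo1 -0.33 to 0.16, Txnrd1 -0.25 to 0.20. Both states: Nfe2l2 -0.23 to 0.18, Hmox1 -0.13 to 0.12, Nqo1 -0.074 to 0.24, Srxn1 -0.12 to 0.32, Txnrd1 -0.12 to 0.11. Re-feeding: Srxn1 -0.081 to 0.22 in controls, and in LMKO Gclc -0.015 to 0.37, Gclm -0.27 to 0.0051 and Hmox1 -0.31 to 0.13; Gclm -0.036 to 0.10 over both. Difference between responses: Nfe2l2 -0.45 to 0.36, Gsr -0.26 to 0.33, Hmox1 -0.016 to 0.48, Txnrd1 -0.26 to 0.18.

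Over all loci, calls between genotypes numbered 11 to 56 fasted (56 without fasted control replicate 1), 3 to 19 re-fed (3 without re-fed LMKO replicate 2) and 15 to 55 over both states; re-feeding calls fell to 1562 without fasted control replicate 2 in controls and to 2202 without re-fed LMKO replicate 2 in LMKO, and those of the difference between responses lay between 1 and 15. With 2 libraries per group and unknown fragment numbers, modest differences may not be detectable, and a missed threshold does not show equal levels.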
